A study of Homo sapiens with 12 samples.

Results

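Interferon-stimulated genes are the antiviral and immune genes that a cell switches on when interferon binds its receptors, and 43 of them, named by symbol, were read from the 24331 features of an RNA-sequencing table of human MDA-MB-231 cells. All 43 symbols were in the table. They comprised 4 transcription factors, 3 RNA sensors, 5 genes of the ISG15 system, PARP9, PARP14 and DTX3L, 4 OAS genes, 2 MX genes, 4 IFIT genes, 3 IFITM genes with BST2, 5 further effectors, 5 IFI genes with XAF1 and LGALS3BP, and 2 immunoproteasome subunits. Of the 43, 34 had a mean of at least 1 FPKM (fragments scaled to transcript length and to mapped fragments) and were tested, and 9 were below it. The 4 IFIT genes lie in a chromosome 10 stretch where the median difference of the other tested genes was also below 0 in the mutant cells, so they were kept apart from the other 30 tested members.

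Interferons of type I and type III act through paired receptors and the kinases JAK1 and TYK2, which activate STAT proteins. STAT2 and IRF9 are parts of the complex ISGF3, which recognises the interferon-stimulated response element (ISRE) in gene promoters. Interferon gamma instead acts through the gamma-activated site (GAS) and induces IRF1. Cancer cell lines often carry some of these transcripts without added interferon, and several of the genes can also be switched on by IRF3, IRF7 or NF-κB when a cell senses foreign nucleic acid.

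The ISRE is shown here because it is the sequence through which most of these genes are known to be controlled. Promoters, from 250 bases before to 50 bases after each gene start (RefSeq, GRCh38.p14), were found for 35 of the 43 members, with DDX58 under its current symbol RIGI and with several starts for some genes. No promoter was matched for IRF7, USP18, OAS2, OASL, MX2, IFIT2, IFITM2 or TRIM22. The ISRE letters, GAAA followed by any 2 bases and a further GAAA, read on both strands, occurred in the promoters of 24 of the 35 members (68.6%), against 1195 of the 27305 genes of the promoter table (4.38%). The GAS letters TTCNNNGAA occurred in 11 of the 35 members (31.4%), against 9.38% of the genes, and in a few promoters, such as that of BST2, the matches to both motifs overlap. A match is only a match of letters. The stretches below come first from 8 members with an ISRE match that were lower in the mutant cells at both stimulated times. Of the other members lower at both times, OAS1 and DDX58 had no ISRE match, and OASL and IFIT2 had no promoter. Then comes SAMD9, which at no time passed the test of mutant against wild-type cells, followed by IRF1 and IRF9, which have a GAS match. Each stretch is written 5′ to 3′ on the strand of the gene, with the match in capitals, so that an ISRE on the opposite strand reads as a pair of TTTC.
IFIT1 (chr10:89392510-89392539, plus strand): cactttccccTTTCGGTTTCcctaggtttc
IFIT3 (chr10:89327865-89327894, plus strand): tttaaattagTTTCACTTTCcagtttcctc
IFIT5 (chr10:89414513-89414542, plus strand): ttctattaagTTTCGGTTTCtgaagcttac
ISG15 (chr1:1013380-1013409, plus strand): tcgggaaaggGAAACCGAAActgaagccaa
OAS3 (chr12:112938321-112938350, plus strand): agaaagaaacGAAACTGAAAgcagggaatt
IFITM3 (chr11:320876-320905, minus strand): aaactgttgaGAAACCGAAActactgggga
ISG20 (chr15:88638937-88638966, plus strand): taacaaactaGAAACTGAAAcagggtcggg
IFI44 (chr1:78649761-78649790, plus strand): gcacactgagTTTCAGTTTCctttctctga
SAMD9 (chr7:93118096-93118125, minus strand): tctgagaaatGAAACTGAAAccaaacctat
IRF1 (GAS, chr5:132490879-132490907, minus strand): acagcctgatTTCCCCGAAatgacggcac
IRF9 (GAS, chr14:24161192-24161220, plus strand): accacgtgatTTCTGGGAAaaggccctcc

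MDA-MB-231 is a metastatic breast cancer line without estrogen or progesterone receptors. Wild-type cells (WT) were compared with cells labelled KO, in which NFAT and NF-κB binding sites within the core-regulatory element (CRE) of the ETS1 promoter had been deleted with CRISPR/Cas9 (ΔCRE). Both were taken unstimulated (0 h) or after 6 h or 24 h of PMA, a phorbol ester that activates protein kinase C, and Ionomycin, a calcium ionophore. The 2 biological replicates of each of the 6 groups gave 12 libraries. The labels name no interferon treatment. ΔCRE cells came from screened clones whose number is not stated, so an effect of the deletion and a property of a clone cannot be told apart.

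In 11 of the libraries the sum of FPKM lay between 566255 and 651080, and the correlation of log2(FPKM + 1) across tested features between replicates was between 0.978 and 0.984. The library labelled ΔCRE 0 h replicate 1 had a sum of 1423335 and correlated with its replicate at 0.867. Markers of the line fitted its label in the other 11 libraries, with VIM between 1543 and 2539 FPKM, ESR1, PGR and CDH1 at no more than 0.0319 FPKM and EPCAM between 2.02 and 3.38 FPKM. In ΔCRE 0 h replicate 1 the markers of the line VIM, CD44, AXL and MSN were also present, at 1200, 76.2, 51.1 and 56.25 FPKM. In the same library, however, EPCAM was 1139 FPKM and CDH1 was 52.3 FPKM. Its gut epithelium markers CDX2, VIL1, KRT20 and CDH17 summed to 340.5 FPKM, against at most 0.0482 FPKM in any other library. That library was therefore left out of every test and is described at the end, and ΔCRE 0 h rests on replicate 2 alone. In WT cells ETS1, the gene whose promoter was altered, was 24.0 and 23.7 FPKM at 0 h, 139 and 145 at 6 h and 36.2 and 39.7 at 24 h. In ΔCRE cells ETS1 was 16.5 FPKM in replicate 2 at 0 h (5.08 in replicate 1), 62.8 and 62.2 at 6 h and 29.3 and 30.7 at 24 h, below both WT libraries at each time.

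Unstimulated WT cells already contained most of these transcripts. The highest mean level, per transcript length, was that of IFITM3, a membrane protein that blocks virus entry, at 269.8 FPKM, followed by LGALS3BP, a secreted glycoprotein, at 194.7 FPKM. ISG15, a ubiquitin-like modifier, followed at 153.4 FPKM and IFITM2, a relative of IFITM3, at 81.0 FPKM. The other 30 tested members lay between 1.97 FPKM (SAMD9L) and 31.1 FPKM (PSMB8) in these cells. The 9 members that were not tested were DDX60, OAS2, MX2, IFITM1, BST2, TRIM22, IFI27, IFI44L and XAF1. None of these 9 exceeded 1.63 FPKM in any of the 11 libraries, and XAF1, a pro-apoptotic protein, was listed at 0 in 9 of them.

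**Figure D1:**
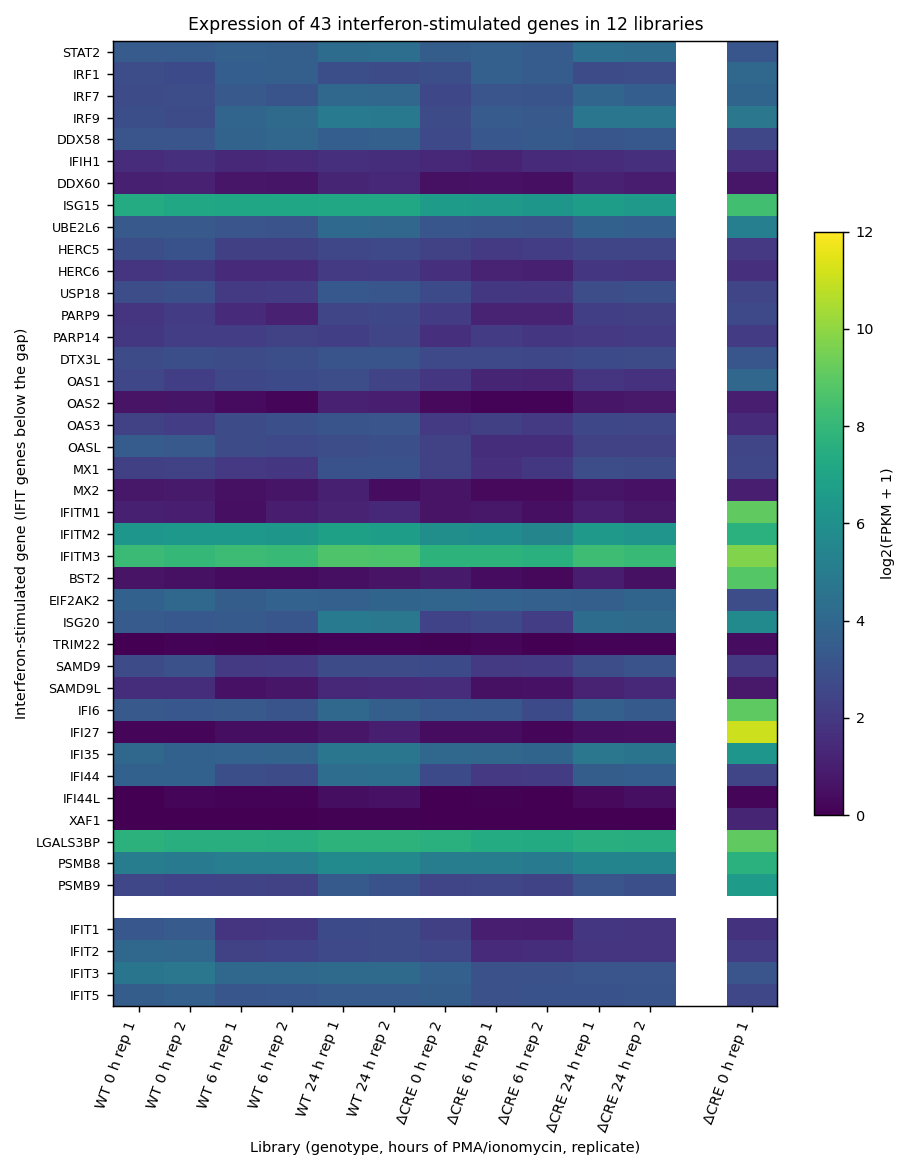
Expression of the 43 members (rows) in the 12 libraries (columns) as log2(FPKM + 1), with the IFIT genes below the gap and ΔCRE 0 h replicate 1 set apart at the right. IFITM3, LGALS3BP and ISG15 are high in every library, while IFITM1, BST2, IFI6 and IFI27 are high only in ΔCRE 0 h replicate 1, at 529.7, 455.0, 519.5 and 2164 FPKM.

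Members that differed between ΔCRE and WT cells were lower in ΔCRE cells at every time, and none was higher. Differences were taken on log2(FPKM + 1), a scale that understates the change of low genes, and tested with limma over all 11256 features with a mean of at least 1 FPKM, with Benjamini-Hochberg adjustment. At 6 h, 14 of the 34 tested members had an adjusted p under 0.05, all lower, against 6.22% of all features tested called lower and 3.62% called higher. At 24 h, 16 members were lower, against 3.97% of all features lower and 2.35% higher, and at 0 h 9 members were lower, against 1.03% lower and 0.657% higher. The 10, 12 and 6 of these that are not IFIT genes were counted among 30 members. The median difference of the 30 members without the IFIT genes was -0.17 at 0 h, -0.16 at 6 h and -0.29 at 24 h, beside medians of 0.0057, 0.013 and 0.0119 over all features. Differences below 0, called or not, were seen in 26, 30 and 32 of the 34 members at 0, 6 and 24 h, beside 48.0%, 46.3% and 46.0% of all features. With ΔCRE 0 h replicate 1 included, 17 of the 34 were below 0 at 0 h. In bulk RNA, fewer cells expressing a gene and less RNA per cell cannot be told apart.

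These counts depended on single libraries, most at 24 h. The number of all features called also fell in each of the fits named next. Without WT 24 h replicate 1 or replicate 2 the 24 h count was 5 in each case, without ΔCRE 24 h replicate 1 it was 8, and without ΔCRE 24 h replicate 2 it was 4. The 6 h count was 9 without WT 6 h replicate 1, and the 0 h count was 5 without either WT 6 h library. When each library was left out in turn, OASL, IFI44, IFIT1, IFIT2 and IFIT3 were called at 0 h in all 10 fits that gave a value, OASL, OAS1, OAS3, IFI44, DDX58, IRF9, IFIT1, IFIT2 and IFIT3 were called at 6 h in all 11 fits, and IFI44, IFIT1, IFIT2 and IFIT3 were called at 24 h in all 11. With ΔCRE 0 h replicate 1 included, the counts were 5 at 0 h, 1 at 6 h (OASL) and 0 at 24 h. Over all features, 17, 20 and 17 of 11676 were called at 0, 6 and 24 h in that fit. Without that library 1107 of 11256 were called at 6 h and 712 at 24 h. The fit with ΔCRE 0 h replicate 1 also tested IFITM1, BST2 and IFI27, which reach a mean of 1 FPKM only through that library. The members counted in that fit are therefore a set enlarged by that library. At 24 h in that fit, 9 of 37 members had an unadjusted p under 0.05 in limma. All of these were lower, beside 3.7% of all features in either direction.

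Of the 34 tested members, 12 were called lower at both 6 h and 24 h, beside 2.77% of all features. These were DDX58, ISG15, OAS1, OAS3, OASL, IFITM3, ISG20, IFI44 and the 4 IFIT genes. Called at 6 h and not at 24 h were IFITM2 and IRF9, and called at 24 h and not at 6 h were DTX3L, PSMB8, UBE2L6 and USP18. HERC5 was called at 0 h alone. The 15 members called at no time were STAT2, IRF1, IRF7, IFIH1, HERC6, PARP9, PARP14, MX1, EIF2AK2, SAMD9, SAMD9L, IFI6, IFI35, LGALS3BP and PSMB9. An ISRE match was present in 10 of 14 promoters of members lower at 6 h or 24 h (71.4%) and in 9 of 15 promoters of the other tested members.

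**Figure D2:**
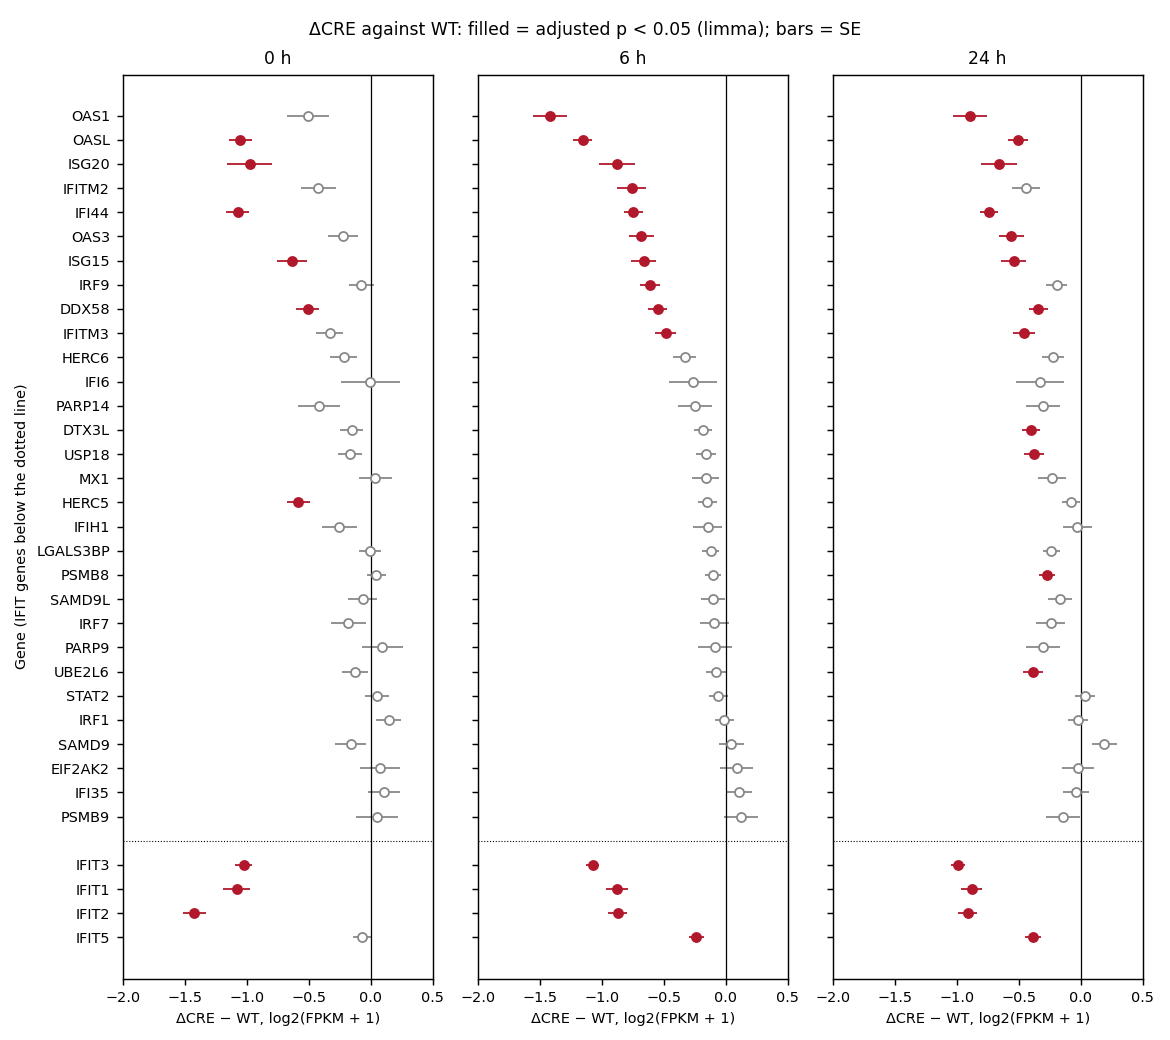
ΔCRE minus WT difference in log2(FPKM + 1) of the 34 tested members at 0, 6 and 24 h, ordered by the 6 h value, with the IFIT genes below the dotted line; bars are standard errors and filled points have an adjusted p under 0.05 in limma. All filled points lie left of 0, from 9 at 0 h to 14 at 6 h and 16 at 24 h, and OAS1 at 6 h is the lowest member outside the IFIT genes at -1.41.

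Of the 4 transcription factors, IRF9 was called lower in ΔCRE cells at 6 h, and STAT2, IRF1 and IRF7 were called at no time. IRF9, the DNA-binding part of ISGF3, was 6.48 and 5.98 FPKM at 0 h, 14.1 and 16.6 at 6 h and 29.2 and 28.1 at 24 h in WT cells. In ΔCRE cells IRF9 was 5.85 FPKM in the single 0 h library, 9.98 and 9.35 at 6 h and 24.9 and 24.9 at 24 h. The libraries were near each other at 0 h and clearly separate at 6 h. The IRF9 difference at 6 h was -0.61 ± 0.08 (SE, adjusted p = 0.00338, limma), and at 24 h it was -0.20 ± 0.08 (adjusted p = 0.21, limma), although both ΔCRE libraries were below both WT libraries there too. STAT2, the partner of IRF9, was 11.91 and 11.24 FPKM in WT and 11.92 and 10.23 in ΔCRE cells at 6 h, with overlapping groups and differences of 0.05, -0.06 and 0.03 at 0, 6 and 24 h. IRF1, a factor induced by interferon gamma and by NF-κB, was 11.04 and 11.21 FPKM in WT and 11.77 and 10.33 in ΔCRE cells at 6 h. Its differences were 0.14, -0.01 and -0.02. IRF7, which drives interferon-alpha genes, differed by -0.18, -0.09 and -0.24 (adjusted p = 0.617, 0.686 and 0.271, limma).

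The RNA sensor DDX58 (RIG-I), which detects viral RNA in the cytoplasm, was lower at all 3 times. In WT cells DDX58 was 7.94 and 7.91 FPKM at 0 h, 13.1 and 14.5 at 6 h and 10.8 and 11.7 at 24 h. The ΔCRE libraries held 5.27 FPKM at 0 h, 8.61 and 9.55 at 6 h and 8.39 and 8.93 at 24 h, so that no ΔCRE library reached the WT range of its time. The differences were -0.51 ± 0.09, -0.55 ± 0.08 and -0.34 ± 0.08 (SE), with adjusted p of 0.0379, 0.00382 and 0.0358 in limma. IFIH1 (MDA5), a further cytoplasmic RNA sensor, lay between 1.211 and 2.196 FPKM in all 11 libraries and differed by -0.25, -0.15 and -0.03.

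OAS enzymes make the oligoadenylates that activate the RNA-degrading enzyme RNase L, while OASL lacks that activity and enhances RIG-I signalling. All 3 tested OAS members were lower at 6 h and at 24 h. OAS1 was 5.15 and 5.42 FPKM in WT and 1.40 and 1.32 FPKM in ΔCRE cells at 6 h, or 25.7% of the WT mean. At 24 h OAS1 was 6.19 and 4.58 FPKM against 2.53 and 2.29, and at 0 h it was 4.84 and 3.70 FPKM against 2.69. Without ΔCRE 0 h replicate 1, which held 14.4 FPKM of OAS1 and so exceeded both WT libraries, WT and ΔCRE levels did not overlap at any time. In ΔCRE cells the 6 h libraries were the lowest, which was not so in WT cells. The OAS1 differences were -1.41 ± 0.14 at 6 h (SE, adjusted p = 0.000737, limma), -0.89 ± 0.14 at 24 h (adjusted p = 0.00845) and -0.51 ± 0.17 at 0 h (adjusted p = 0.203). OASL was 10.2 and 9.07 FPKM at 0 h, 5.78 and 5.35 at 6 h and 6.11 and 6.69 at 24 h in WT cells. It was 4.12, then 1.97 and 1.93, then 4.23 and 4.17 FPKM in ΔCRE cells, that is 42.8%, 35.0% and 65.7% of WT. The OASL differences were -1.05 ± 0.10, -1.15 ± 0.08 and -0.51 ± 0.08 (SE), all called. OAS3 was 5.74 and 6.55 FPKM in WT and 3.83 and 3.10 in ΔCRE cells at 6 h, and 7.60 and 8.05 against 5.11 and 4.86 at 24 h. The OAS3 difference was -0.68 ± 0.10 at 6 h and -0.56 ± 0.10 at 24 h (SE), and -0.22 ± 0.12 at 0 h, where it was not called. OAS2 was too low to be tested, with at most 1.13 FPKM.

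Within the ISG15 system, the modifier itself was lower at 6 h and 24 h and, without ΔCRE 0 h replicate 1, at 0 h, and the enzymes that attach or remove it were called at 1 time or none. ISG15 was 168 and 139 FPKM at 0 h, 134 and 131 at 6 h and 141 and 142 at 24 h in WT cells. The ΔCRE libraries held 97.8 FPKM at 0 h, 85.0 and 81.3 at 6 h and 106 and 89.2 at 24 h, and these 5 libraries were all below all 6 WT libraries. The differences were -0.64 ± 0.12, -0.66 ± 0.10 and -0.54 ± 0.10 (SE), with adjusted p of 0.0433, 0.00529 and 0.0169 in limma. With ΔCRE 0 h replicate 1 included, the ISG15 difference at 0 h was 0.22. UBE2L6, the conjugating enzyme, and USP18, which removes ISG15 and damps receptor signalling, were called at 24 h alone, at -0.39 ± 0.08 and -0.38 ± 0.08 (SE). UBE2L6 was then 16.4 and 14.5 FPKM in WT and 12.3 and 10.95 in ΔCRE cells. USP18 was 9.001 and 8.26 FPKM against 6.16 and 6.68. The ligase HERC5 was called at 0 h alone, at 6.40 and 7.06 FPKM against 4.14, and its relative HERC6 was not called, with differences of -0.22, -0.33 and -0.22.

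The IFITM proteins sit in cell and endosome membranes and hinder virus entry. IFITM3 was 298 and 276 FPKM in WT and 215 and 195 in ΔCRE cells at 6 h, and 416 and 388 against 308 and 277 at 24 h. Its differences were -0.49 ± 0.09 at 6 h and -0.46 ± 0.09 at 24 h (SE), and -0.33 ± 0.11 at 0 h, where it was not called. IFITM2 was 84.1 and 81.7 FPKM against 55.3 and 42.6 at 6 h, a difference of -0.76 ± 0.11 (SE, adjusted p = 0.00548, limma), and at 24 h it was 111 and 107 against 85.7 and 74.4 (adjusted p = 0.062). Both genes were thus below the WT range in every stimulated ΔCRE library.

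ISG20, an exonuclease that degrades viral RNA, and IFI44, a cytoplasmic protein that slows cell growth, were lower at all 3 times. ISG20 was 9.73 and 8.95 FPKM at 0 h, 9.56 and 8.16 at 6 h and 28.7 and 27.3 at 24 h in WT cells. In ΔCRE cells ISG20 was 4.25, then 5.36 and 3.51, then 18.1 and 16.6 FPKM, with differences of -0.98 ± 0.18, -0.88 ± 0.15 and -0.66 ± 0.15 (SE), the first of which was 0.67 with ΔCRE 0 h replicate 1 included. IFI44 was 12.4 in both WT libraries at 0 h, 6.47 and 5.59 FPKM at 6 h and 18.6 and 19.2 at 24 h. In ΔCRE cells it was 5.38, then 3.04 and 3.33, then 10.7 and 11.1 FPKM, or 43.3%, 52.8% and 57.8% of WT, with differences of -1.07 ± 0.09, -0.75 ± 0.07 and -0.74 ± 0.07 (SE). Each gene kept a similar course over time in both genotypes, at a lower level in ΔCRE cells. The kinase EIF2AK2 (PKR), which stops translation when it binds double-stranded RNA, was between 10.5 and 14.9 FPKM in all 11 libraries, with differences of 0.08, 0.09 and -0.02. SAMD9 and SAMD9L, which restrict poxviruses, were not called either, and SAMD9 was the member with the highest difference at 24 h (0.19 ± 0.10, SE).

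Among the remaining members, DTX3L, a ubiquitin ligase that partners PARP9, was 7.65 and 7.75 FPKM in WT and 5.39 and 5.77 in ΔCRE cells at 24 h, a difference of -0.40 ± 0.07 (SE, adjusted p = 0.0167, limma). PARP9 and DTX3L are listed with 1 shared interval, their ISRE matches are the same bases read on opposite strands (chr3:122564322-122564351, GRCh38.p14), and PARP9 was not called (-0.30 ± 0.13 at 24 h). PSMB8, a catalytic subunit of the immunoproteasome that trims antigens, was 52.4 and 49.5 FPKM against 41.8 and 42.1 at 24 h, a difference of -0.27 ± 0.06 (SE, adjusted p = 0.0441). The interval of PSMB8 is shared with TAP1, so its value is less certain. The sister subunit PSMB9 and the members PARP14, MX1, IFI6, IFI35 and LGALS3BP were not called at any time.

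**Figure D3:**
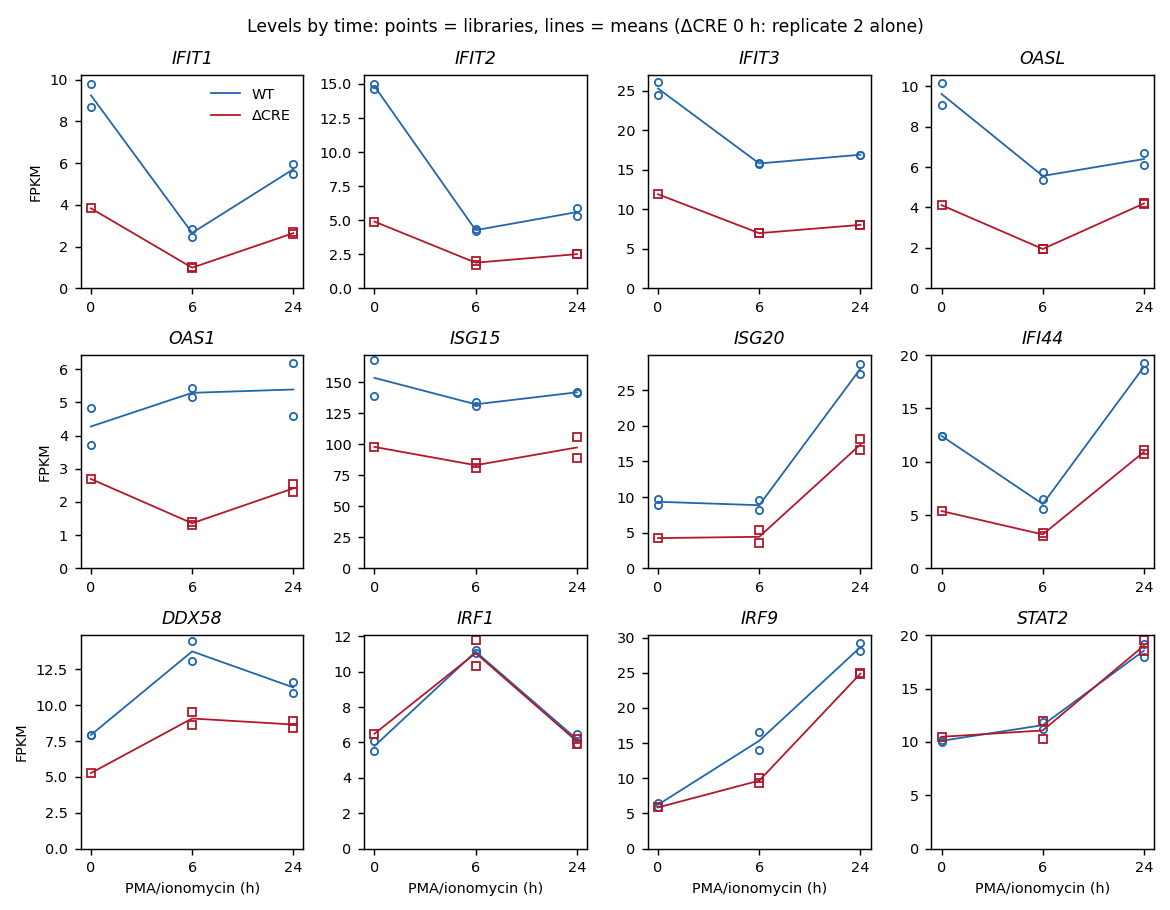
FPKM of 12 members at 0, 6 and 24 h of PMA/Ionomycin in WT (blue circles) and ΔCRE cells (red squares); points are libraries, lines join means, the 3 times are drawn evenly spaced and each y axis starts at 0. ΔCRE 0 h is replicate 2 alone. IFIT1, IFIT2 and OASL fall to 6 h in WT cells, and ISG20 and IFI44 are highest at 24 h. Among the points drawn, IRF1 and STAT2 overlap between the genotypes at 6 h and 24 h while OAS1 and ISG15 do not overlap at any time.

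Whether the genotype difference itself changed between 6 h and 24 h was tested as an interaction, and no member passed (0 of 34, beside 0.16% of all features). An unadjusted p under 0.05 in limma was reached by 4 of the 34 members, beside 6.98% of all features. OASL had the largest change, with 0.65 ± 0.11 (SE, adjusted p = 0.107), the gap to WT being wider at 6 h. OAS1 followed with 0.52 ± 0.19 (adjusted p = 0.646), then IRF9 with 0.42 ± 0.11 (adjusted p = 0.429) and UBE2L6 with -0.30 ± 0.12 (adjusted p = 0.664). With a pseudocount of 0.1 in place of 1, the interaction of OASL passed. IRF9, called at 6 h and not at 24 h, is therefore not shown to differ between these times.

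The IFIT genes, whose proteins bind foreign RNA ends and block their translation, form a cluster on chromosome 10 of hg19. IFIT2 lies from 91061706 to 91069033, IFIT3 from 91087602 to 91100725, IFIT1 from 91152303 to 91166244 and IFIT5 from 91174325 to 91180759. IFIT1 was 8.70 and 9.80 FPKM at 0 h, 2.47 and 2.83 at 6 h and 5.46 and 5.96 at 24 h in WT cells. In ΔCRE cells IFIT1 was 3.83, then 1.02 and 0.956, then 2.70 and 2.59 FPKM. At each time the ΔCRE level of IFIT1 was under the lower WT library by a wide margin, at 41.4%, 37.2% and 46.3% of the WT mean. IFIT2 was 15.0 and 14.6 FPKM at 0 h, 4.18 and 4.36 at 6 h and 5.31 and 5.88 at 24 h in WT cells, and 4.90, then 1.75 and 2.02, then 2.53 and 2.48 FPKM in ΔCRE cells. IFIT3 was 24.5 and 26.1 FPKM at 0 h, 15.8 and 15.9 at 6 h and 16.9 and 16.9 at 24 h in WT cells, and 11.9, then 6.97 and 6.998, then 8.01 and 8.06 FPKM in ΔCRE cells. These 3 genes were therefore between 33.0% and 47.5% of WT at every time. IFIT5 was much nearer to WT, with 10.8 and 11.6 FPKM against 10.6 at 0 h, 8.31 and 8.54 against 6.87 and 7.11 at 6 h, and a WT mean of 10.01 against 7.25 and 7.62 at 24 h.

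On the log2(FPKM + 1) scale the IFIT differences at 0, 6 and 24 h were -1.08 ± 0.11, -0.88 ± 0.09 and -0.88 ± 0.09 (SE) for IFIT1 and -1.42 ± 0.09, -0.87 ± 0.08 and -0.91 ± 0.08 for IFIT2. For IFIT3 they were -1.03 ± 0.07, -1.07 ± 0.05 and -0.99 ± 0.05, with adjusted p of 9.87e-05, 2.04e-05 and 4.42e-05 in limma. IFIT5 differed by -0.07 ± 0.07, -0.24 ± 0.06 and -0.39 ± 0.06 (SE), called at 6 h and 24 h (adjusted p = 0.0443 and 0.00912). Within 5 Mb on either side of the cluster, 36 other features were tested, and their median differences were -0.32, -0.23 and -0.21 at 0, 6 and 24 h. Of the 36, 3, 6 and 8 were called lower and 0 were called higher. The same windows around the other 30 tested members had medians between -0.12 and 0.11 at 0 h, -0.07 and 0.08 at 6 h, and -0.05 and 0.12 at 24 h, so the chromosome 10 window was the lowest of them at each time. IFIT1, IFIT2 and IFIT3 were lower still than that stretch, and their distance from its median ran from -0.64 (IFIT2 at 6 h) to -1.11 (IFIT2 at 0 h). At most 1 of the 36 neighbours was lower than each of these 3 genes at any time, and that neighbour was SNCG. IFIT5 lay within the range of its neighbours, 32, 16 and 7 of which were lower at 0, 6 and 24 h. The part of the stretch in the IFIT differences was not tested.

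**Figure D4:**
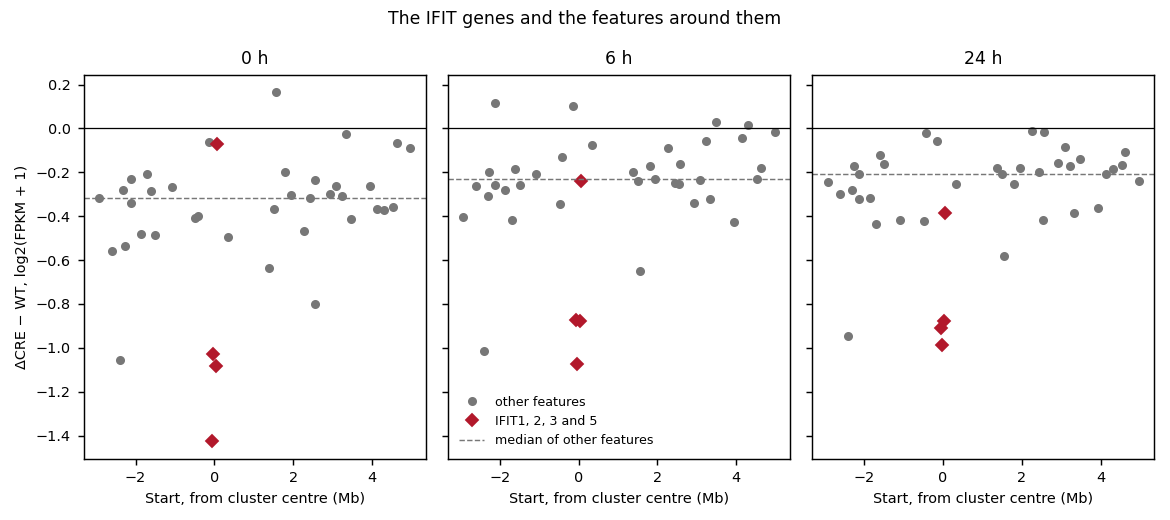
ΔCRE minus WT difference in log2(FPKM + 1) at 0, 6 and 24 h for IFIT1, IFIT2, IFIT3 and IFIT5 (red diamonds) and the 36 other tested features within 5 Mb (grey circles), against the distance of each start from the cluster centre in Mb. The dashed line is the median of the 36 (-0.32, -0.23 and -0.21); IFIT1, IFIT2 and IFIT3 lie well below it and IFIT5 lies among the grey circles.

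In WT cells, PMA/Ionomycin moved the members in more than 1 pattern. At 6 h, 5 members had risen and 14 had fallen relative to 0 h, beside 23.3% and 21.1% of all features. The 5 that rose were IRF9, to 2.46 times its 0 h mean (1.17 ± 0.08, SE), IRF1, to 1.92 times (0.84 ± 0.08), DDX58, to 1.74 times (0.72 ± 0.08), OAS3, to 1.63 times (0.58 ± 0.10), and IRF7, to 1.42 times (0.44 ± 0.11). These are 3 of the 4 transcription factors, an RNA sensor and an OAS enzyme. The largest falls were those of IFIT2 (-1.59 ± 0.08), IFIT1 (-1.49 ± 0.09), IFI44 (-0.94 ± 0.07), SAMD9L (-0.90 ± 0.10), SAMD9 (-0.80 ± 0.10) and USP18 (-0.79 ± 0.08). PARP9, OASL, HERC5, IFIT3, HERC6, IFIT5, MX1 and UBE2L6 fell as well, by between -0.24 and -0.73 on this scale. The IFIT family fell as a whole, and so did 4 of the 5 genes of the ISG15 system. The 36 other features around the IFIT cluster had a median of -0.21, with 15 called lower and 4 higher. The same windows around IFI44 (-0.34) and around HERC5 and HERC6 (-0.27 each) had lower medians, so this window was not the lowest at 6 h. At 24 h against 0 h the median of the 36 was -0.29, with 20 lower and 3 higher, and this window was the lowest. The part of the stretch in the IFIT falls was not tested. Among the members that fell by 6 h, SAMD9L was 1.95 and 1.98 FPKM at 0 h and 0.522 and 0.659 at 6 h, and USP18 was 6.13 and 6.595 FPKM at 0 h and 3.11 and 3.41 at 6 h.

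By 24 h most of these levels had come back or gone above the start. Relative to 0 h, 18 members were higher and 5 were lower in WT cells at 24 h, beside 26.5% and 28.2% of all features, and none of the 18 was an IFIT gene. IRF9 rose to 4.60 times its 0 h mean (2.04 ± 0.08, SE, adjusted p = 4.86e-07, limma), ISG20 to 2.997 times (1.49 ± 0.15), IRF7 to 2.504 times (1.20 ± 0.11), OAS3 to 2.08 times (0.89 ± 0.10), IFI35 to 1.81 times (0.82 ± 0.11) and STAT2 to 1.84 times (0.82 ± 0.08). STAT2 was 9.98 and 10.2 FPKM at 0 h and 18.0 and 19.2 at 24 h, and IRF7 was 5.67 and 6.25 FPKM at 0 h and 15.2 and 14.6 at 24 h. Both immunoproteasome subunits rose, PSMB8 by 0.69 ± 0.06 and PSMB9 by 0.73 ± 0.14 (SE). The 5 that stayed below 0 h were IFIT2 (-1.27 ± 0.08), IFIT1 (-0.61 ± 0.09), IFIT3 (-0.55 ± 0.05), OASL (-0.52 ± 0.08) and HERC5 (-0.35 ± 0.08). IRF1, which peaked at 6 h, was at 6.46 and 5.90 FPKM at 24 h, near its 6.07 and 5.51 at 0 h.

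Between 6 h and 24 h, 25 members rose and 2 fell in WT cells, IRF1 (-0.76 ± 0.08, SE) and DDX58 (-0.27 ± 0.08), beside 20.5% of all features called higher and 26.3% lower. In ΔCRE cells 25 rose and 1 fell, IRF1 again (-0.77 ± 0.08), beside 22.1% called higher and 27.5% lower, and 22 members rose in both genotypes. The share of all features that rose in both genotypes was not counted. It can be no more than the 20.5% called higher in WT cells. ISG20 and IFI44 rose most in both, by 1.56 and 1.505 in WT and by 1.78 and 1.51 in ΔCRE cells. In WT cells 12 of the 34 members, beside 7.66% of all features, first fell by 6 h and then rose by 24 h: UBE2L6, HERC5, HERC6, USP18, PARP9, MX1, IFIT1, IFIT2, IFIT5, SAMD9, SAMD9L and IFI44. The 6 h libraries enter both steps of that course. With ΔCRE 0 h replicate 1 included in the fit, the calls were 8 for 6 h against 0 h, 8 for 24 h against 0 h and 7 for 24 h against 6 h in WT cells, and 9 for 24 h against 6 h in ΔCRE cells, beside 19, 23, 27 and 26 without it. Over all features the calls were 857, 1221, 582 and 845 of 11676 with that library. Without it they were 4993, 6151, 5267 and 5586 of 11256. Rescaling the values to TPM, which makes every library sum to the same total, turned the balance of all features for 24 h against 6 h in WT cells from 2303 higher and 2964 lower to 3208 higher and 1780 lower, while the members gave 28 higher and 1 lower.

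The genes that act before these members were read from lists of the pathway. Of the 10 listed interferon genes that were found in the table, IFNB1, IFNA1, IFNA2, IFNE, IFNK, IFNW1, IFNG, IFNL2 and IFNL3 were listed at 0 in all 12 libraries. IFNL1, a type III interferon, did not exceed 0.116 FPKM. Of 9 receptors and kinases tested, 0 were called between ΔCRE and WT cells at 6 or 24 h. Over all features, 6.22% and 3.97% were called lower and 3.62% and 2.35% higher at these times, so 0 of 9 does not set these genes apart. IFNAR1 and IFNAR2, the type I receptor chains, were 8.34 and 9.35 FPKM and 9.76 and 11.3 FPKM in WT cells at 6 h, against 8.75 and 11.2 and 9.53 and 11.2 in ΔCRE cells. JAK1 lay between 16.7 and 27.3 FPKM and TYK2 between 18.9 and 33.6 FPKM over the 11 libraries, and their ΔCRE differences lay within -0.09 and 0.20. A p above the threshold does not show that these levels were equal, and the standard errors of these differences were between 0.06 and 0.15.

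Genes of sensing and signalling, sensors included, and other interferon-responsive genes were counted from lists. Of 18 tested genes of sensing and signalling, 0, 6 and 2 were lower and 0 were higher in ΔCRE cells at 0, 6 and 24 h, beside the same shares of all features as given for the members. The 3 largest falls at 6 h were TMEM173 (STING, the adaptor of DNA sensing) at -1.03 ± 0.11 (SE), TLR4 at -0.57 ± 0.09 and IKBKE, a kinase of IRF3 and IRF7, at -0.52 ± 0.06. At 24 h the called genes were DHX58 (LGP2, a RIG-I relative) at -0.62 ± 0.12 and TMEM173 at -0.46 ± 0.11. Of 41 tested interferon-responsive genes outside the 43 members, 0, 5 and 3 were lower and 0 higher, beside the 1.03%, 6.22% and 3.97% of all features called lower, led at 6 h by GBP2 (-0.86 ± 0.08), PARP10 (-0.79 ± 0.10) and GBP3 (-0.40 ± 0.06) and at 24 h by UBA7, the activating enzyme of ISG15 (-0.88 ± 0.11). The median difference of these 41 was -0.02, -0.04 and -0.07 at the 3 times. Of 11 tested negative regulators, TNFAIP3, an inhibitor of NF-κB signalling, was lower at 6 h (-0.35 ± 0.06) and 24 h (-0.32 ± 0.06). None of the others was called at these times, beside 6.22% and 3.97% of all features called lower. SOCS3, which restrains JAK kinases, was thus not called. In WT cells TNFAIP3 rose by 3.71 and SOCS3 changed by -1.23 from 0 h to 6 h.

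Markers of immune cells were given beside these results because such cells also express interferon-stimulated genes. PTPRC and CD3E did not exceed 0.0281 FPKM in the 11 libraries, and CD14 did not exceed 0.584 FPKM. CD68, which many cancer lines express, lay between 20.8 and 91.7 FPKM, was lower in ΔCRE cells at 6 h (-0.49 ± 0.11, SE, adjusted p = 0.0229, limma) and rose in WT cells from 0 h to 24 h (1.55 ± 0.11). These markers summed to between 26.6 and 91.9 FPKM in WT and between 21.4 and 72.3 FPKM in the ΔCRE libraries, nearly all of it CD68. Its part in the members' differences was not tested.

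The library ΔCRE 0 h replicate 1 is shown apart. In it 14 of the 34 tested members were above all other 11 libraries, beside 35.0% of all features tested, and 7 of the 34 were below all of them, beside 36.1%. Of the 9 members that were not tested, 5 were also above, which makes 19 of 43, but no share of untested features was counted beside this. The sum of FPKM was 1423335 in this library and at most 651080 in the others, and these levels were not rescaled for that. BST2 (tetherin, which holds virus particles at the cell surface) was 455.0 FPKM there and at most 0.873 FPKM elsewhere. IFI27, a mitochondrial protein, was 2164 FPKM against at most 0.988, and IFITM1 was 529.7 FPKM against at most 1.63. IFI6 was 519.5 FPKM against at most 15.6. The IFIT genes were not raised with them: IFIT1, IFIT2 and IFIT3 were 2.39, 3.398 and 8.06 FPKM, under replicate 2 of the same group, and IFIT5 was 4.90 FPKM, under all other libraries. The gut epithelium and EPCAM levels given above moved with these values, and their part was not tested.

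**Figure D5:**
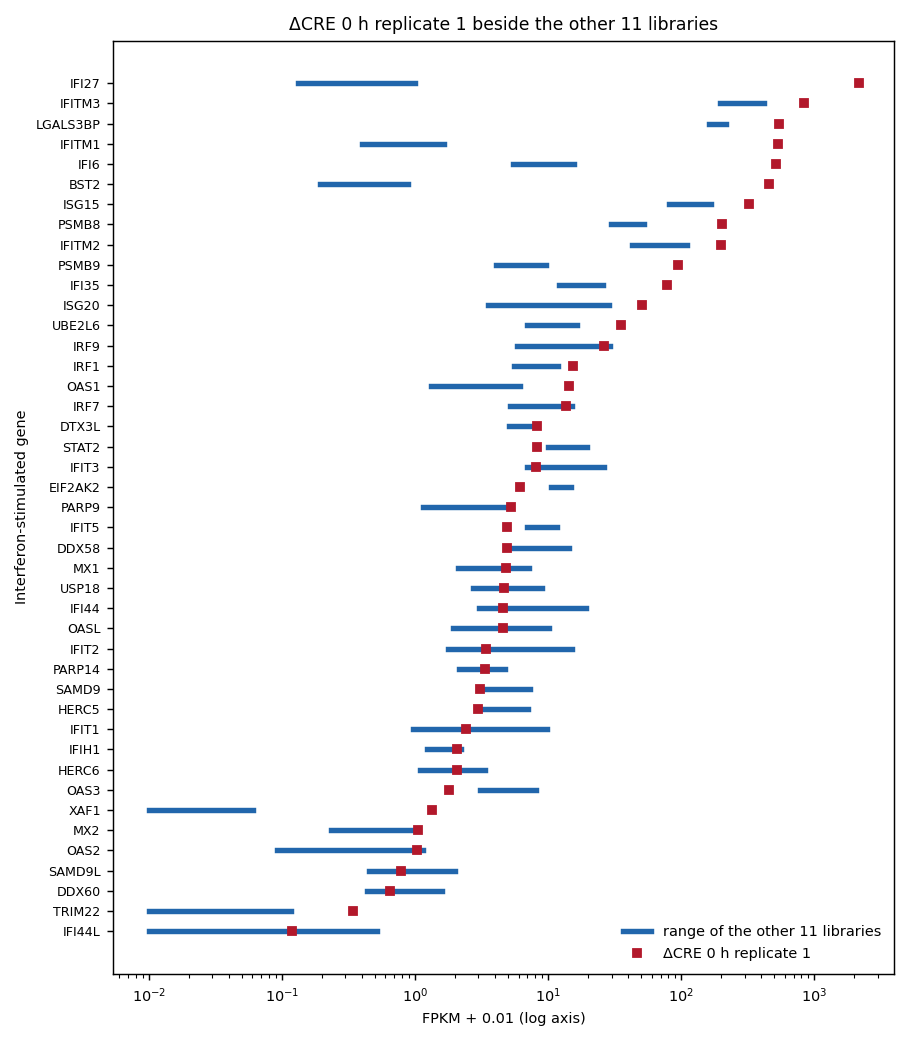
FPKM + 0.01 on a log axis for each of the 43 members in ΔCRE 0 h replicate 1 (red squares), beside the range of the other 11 libraries (blue lines). IFI27, BST2, IFITM1, IFI6 and XAF1 lie at least 10 times above the highest of the other libraries, while STAT2, DDX58, HERC5, OAS3, IFIT5, EIF2AK2 and SAMD9 lie below the range.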

How the data were processed

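Transcript levels of WT and ΔCRE cells were measured at 3 times, with 2 libraries per genotype and time. The authors prepared stranded mRNA libraries, aligned reads (TopHat, hg19), quantified transcripts (Cufflinks) and deposited FPKM values, which keep no read number, so depth and counting error are unknown. The gene annotation is not given in the sources used here. Samples were grouped by their labels, and 2 columns with a misprinted name (ΔCRE replicate 2 at 0 h and 6 h) were matched to the only label left.

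The 43 members and the lists were chosen with earlier results of these data known, the lower chromosome 10 stretch included. A pseudocount of 1 FPKM was added, and 11256 features with a mean of at least 1 FPKM in 11 libraries were tested with limma 3.58.1 (lmFit, eBayes with trend, R 4.3.3) in 1 model of 6 groups, checked on simulated data. ΔCRE 0 h had 1 library, assumed to vary like the other groups. P-values were adjusted by Benjamini-Hochberg, and a feature was called at an adjusted p under 0.05. P-values cover only the spread between these replicates.

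Named with full values were the IFIT genes, STAT2, IRF1, IRF7, IRF9 and, per comparison, called members with the 6 largest rises and falls without overlap; from the lists, interferons, IFNAR1, IFNAR2, JAK1, TYK2 and up to 3 called genes each; some genes of the lists are not reported here. Other members, SNCG and the members of ΔCRE 0 h replicate 1 were named after their values were seen. Alternatives were all 12 libraries, a pseudocount of 0.1, no filter, a mean of at least 5 FPKM, quantile normalization, rescaling to TPM, separate fits, a replicate block, eBayes without trend and leaving out each library.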

Additional observations from a re-analysis of the deposited data

Results flagged for a closer look

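The library ΔCRE 0 h replicate 1 entered no main comparison. Of the 34 tested members 14 exceeded every other library in it, WT included, beside 35.0% of all features tested, and 7 lay below every other library, beside 36.1%. With the untested members, which average under 1 FPKM in the other libraries, 19 of the 43 exceeded every other library. No share of untested features was counted beside these 19. The sum of FPKM was 1423335 in this library and at most 651080 in the others, and the levels were not rescaled for that. Ratios to the highest other library ran from 1.04 (PARP9) to 2189 (IFI27), with 1.93 for ISG15 and 2.03 for IFITM3. The members raised most were IFI27 at 2164 FPKM, IFITM1 at 529.7, IFI6 at 519.5, BST2 at 455.0 and XAF1 at 1.34 FPKM. The members that were already high elsewhere were IFITM3 at 844.2 FPKM, LGALS3BP at 542.8, ISG15 at 324.2 and IFITM2 at 198.6. The immunoproteasome subunits PSMB8 and PSMB9 reached 203.9 and 94.0 FPKM, and IFI35, ISG20 and UBE2L6 reached 78.4, 50.5 and 35.2 FPKM. Smaller excesses were those of IRF1 at 15.3 FPKM, OAS1 at 14.4, DTX3L at 8.21, PARP9 at 5.29 and TRIM22 at 0.332 FPKM. No group held 4 or more libraries, so no test for a single outlying library was made within groups.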

How the results depend on the processing

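Depth is unknown in these FPKM values, and members under 1 FPKM could not be judged. The counts of members called between ΔCRE and WT cells at 0, 6 and 24 h were 9, 14 and 16. With all 12 libraries they were 5, 1 and 0, where ΔCRE 0 h holds the library that stands apart. The WT counts for 6 h against 0 h, 24 h against 0 h and 24 h against 6 h were then 8, 8 and 7. The ΔCRE count for 24 h against 6 h was 9. Calls over all features were few in that fit too. They were 17, 20 and 17 of 11676 between the genotypes, and 857, 1221, 582 and 845 for the comparisons over time in the same order. That setting reversed ISG15 at 0 h to 0.22 and ISG20 at 0 h to 0.67. A fit of each pair of groups alone, with fewer libraries to estimate the spread, called fewer members at each time. At 6 and 24 h it gave 8 and 5, beside 364 and 132 of 11256 features. When each library was left out in turn, the 0 h count lay between 5 and 8, the 6 h count between 9 and 14 and the 24 h count between 4 and 16. The WT counts lay between 16 and 19 (6 h against 0 h), 21 and 24 (24 h against 0 h) and 21 and 27 (24 h against 6 h), and the ΔCRE count between 21 and 26. The interaction count stayed at 0 in those fits and became 1 (OASL) with a pseudocount of 0.1. Rescaling to TPM shifted the median of all features for WT 6 h against 0 h to -0.12, and it called 5 members up and 16 down, against 5 and 14. No filter, a mean of at least 5 FPKM, quantile normalization and eBayes without trend kept each count within 1.5 times, and none of these settings reversed a named member. The replicate numbers are shared between groups, but same-numbered libraries did not deviate together throughout (correlations from -0.07 to 0.20 over pairs of groups), so they were not taken as pairs. With the replicate number as a block no call was lost, and the counts were 15 and 18 at 6 and 24 h. Calls over all features rose as well with the block, from 1107 and 712 to 1805 and 1407 of 11256.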
